A study of Mus musculus with 12 samples.

Results

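The comparison described here is between the 2 control derivatives of ImPSC-1, an immortalised mouse pancreatic stellate cell line: 3 libraries of cells that overexpress Egfp (Egfp_OE, labelled P17, P18 and P19) and 3 of cells with a control hairpin (shCtrl, labelled PLKO-1 and P14, P15 and P16). They are 6 of the 12 RNA sequencing libraries of a study of Kitl, the gene for stem cell factor. The other 6 come from cells with a hairpin against Kitl (shKitl) and cells that overexpress Kitl (Kitl_OE), for which shCtrl and Egfp_OE serve as the respective controls. All 4 lines are stable derivatives kept in DMEM with serum and pyruvate, and the sources used here do not say whether each is a clone or a pool. The shCtrl cells are labelled wild type and the Egfp_OE cells Egfp overexpression, and neither of these 2 lines carries a Kitl construct. The comparison thus measures how far 2 lines that both act as controls lie from each other. The Egfp transcript itself was not analysed here. The labels do not state that the replicates of a line were separate cultures. The p-values below therefore reflect only the spread among libraries, which may be technical. In the main test that spread was estimated over all 12 libraries.

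Stellate cells are the resident mesenchymal cells of the pancreas. They hold retinoid droplets when quiescent and make collagen and contractile proteins when activated. Like other fibroblasts they keep a record of their embryonic position in the transcription factors they express, among them the Hox genes. They also carry the machinery of the interferon response, in which a signal from nucleic acid sensors or from secreted interferon switches on a large common set of antiviral and antigen presentation genes, and of cholesterol synthesis, whose enzymes are induced together when sterols run low.

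Both lines expressed the stellate and fibroblast markers, and their 12 markers summed to between 5463 and 6839 CPM (read counts scaled to library size by TMM) in shCtrl and between 5088 and 6563 CPM in Egfp_OE. Markers of blood and mast cells summed to at most 3.36 CPM and those of Schwann cells to at most 3.69 CPM in any of the 6 libraries. Other lists were not near 0: endothelium markers summed to 6.48 to 12.8 CPM, pericyte markers to 18.4 to 60.5 CPM and mesothelium markers to 16.5 to 102 CPM. The 10 pancreatic epithelium markers summed to 25.0 to 88.1 CPM, though Cpa1, Ins2 and Pdx1 among them had no count in any of the 6. Kitl was at 73.5, 73.6 and 76.4 CPM in shCtrl and at 72.5, 31.8 and 72.3 CPM in Egfp_OE, each given in the order of replicates 1, 2 and 3, as are all values below. The log2 fold change of Kitl, Egfp_OE minus shCtrl as throughout, was -0.34 (SE 0.25, adjusted p = 0.414), and without Egfp_OE replicate 2 it was -0.04 (adjusted p = 0.872). Egfp_OE replicate 2 alone was apart for Kitl, and the other 5 libraries lay between 72.3 and 76.4 CPM. Kit, the receptor for the Kitl product, was at 0.0658 CPM or less in all 6 libraries and was not tested.

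Gene counts per library ran from 24979742 to 33517686. Egfp_OE replicate 2 had 1.35% of its counts in the ERCC spike-in RNAs, while the other 5 libraries had 0.499% to 0.586%. The distance between 2 libraries was taken as the median absolute log2 difference in CPM over 15271 genes. It was 0.126 between shCtrl replicates 2 and 3 and 0.187 between Egfp_OE replicates 1 and 3. It was 0.637 or more in every pair that held Egfp_OE replicate 2. The distance of shCtrl replicate 1 was 0.222 to Egfp_OE replicate 1 and 0.286 to Egfp_OE replicate 3, against 0.292 and 0.360 to shCtrl replicates 2 and 3. So by this measure shCtrl replicate 1 lay nearer to 2 libraries of the other line than to the 2 of its own. The P numbers of the 2 lines do not overlap, their meaning is not given in the labels, and P number and line cannot be told apart.

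**Figure D1:**
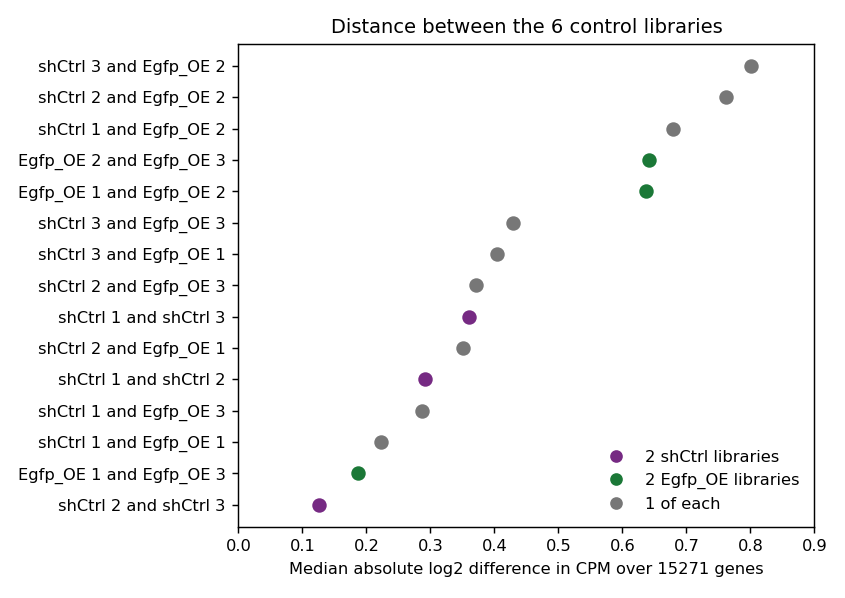
The horizontal axis is the median absolute log2 difference in CPM over all tested genes, and each point is a pair of the 6 libraries, coloured by whether both are shCtrl, both are Egfp_OE or 1 of each. The 5 pairs with Egfp_OE replicate 2 lie at 0.637 and above, and shCtrl replicate 1 with Egfp_OE replicate 1 (0.222) lies below shCtrl replicate 1 with either other shCtrl library.

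Egfp_OE replicate 2 differed from replicates 1 and 3 of its own line by gene length. Over 15232 genes with a length in the annotation, the median log2 difference between replicate 2 and the mean of replicates 1 and 3 was 0.55 in the shortest of 4 equal groups of genes by exon length (56 to 2414 bases). It was 0.17 and -0.18 in the middle groups and -0.52 in the longest group (6489 to 123179 bases). Across genes, which are not independent replicates and here share the same libraries, Spearman's rho with length was -0.49 and Pearson's r with log2 length -0.43. The same measure was flat elsewhere: rho was 0.0028 for the mean of Egfp_OE replicates 1 and 3 minus shCtrl, and 0.058 for Egfp_OE replicate 1 minus replicate 3. The length groups were chosen after the data were seen. Results that rest on Egfp_OE replicate 2 are therefore given below with and without it, and the part of length in them was not tested.

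**Figure D2:**
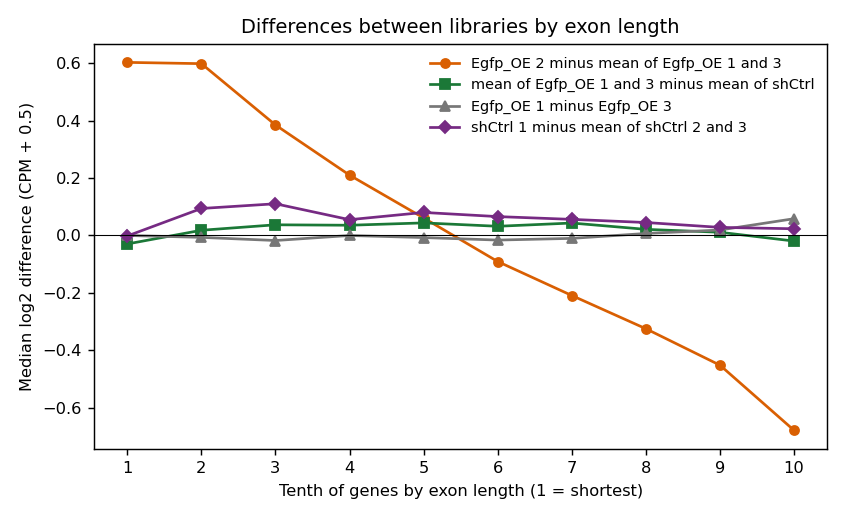
The horizontal axis gives 10 equal groups of the genes by exon length from shortest to longest, and the vertical axis the median log2 difference in CPM + 0.5. The line for Egfp_OE replicate 2 against replicates 1 and 3 falls from above 0 in the shortest genes to below 0 in the longest, with rho -0.49 over genes, and the 3 other comparisons stay near 0.

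By edgeR's quasi-likelihood test 191 of 15271 genes (1.25%) differed between the lines at an adjusted p under 0.05. Egfp_OE was higher than shCtrl in 78 of these (0.511%) and lower in 113 (0.74%). The higher genes had a median log2 fold change of 1.63 and the lower genes of -1.76, and 158 of the 191 differed by a log2 of at least 1. For each of the 191 the 3 libraries of a line lay on the same side of the 3 of the other, which was so for 28.5% of all tested genes (14.6% higher and 13.9% lower). Of the called genes 181 were protein coding and 36 had a mean below 5 CPM in the line where they were higher. In 70 of the 78 higher and 94 of the 113 lower genes, shCtrl replicate 1 was the shCtrl library nearest to Egfp_OE. Over all tested genes it was the highest of its line in 49.0%, and how often it was the lowest was not counted. By the median distance over all genes it was also nearer to Egfp_OE replicates 1 and 3 than the other shCtrl libraries were. How often it was the nearest gene by gene was not counted over all genes. Whether this is particular to the called genes was therefore not tested. For scale, the same fit called 0 genes between shKitl and shCtrl (2417 at an unadjusted p under 0.05) and 5236 (34.3%) between Kitl_OE and Egfp_OE. It called 976 of the 15271 genes between Egfp_OE and shKitl and 4932 between Kitl_OE and shCtrl. These comparisons share control libraries with the present one.

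Without Egfp_OE replicate 2, edgeR called 336 genes (2.15%), 182 higher (1.17%) and 154 lower (0.986%), and 158 of the original 191 were among them, all in the same direction. Without Egfp_OE replicate 3 no gene passed (4074 at an unadjusted p under 0.05). Without shCtrl replicate 2 or without shCtrl replicate 3, 2 genes passed (0.0127%), Sox13 and Smpd3. Without shCtrl replicate 1, 771 genes passed (4.94%) and 190 of the 191 were among them, and without Egfp_OE replicate 1 there were 461 (2.95%), with 179 of the 191. When the 6 libraries were fitted alone, so that the other 6 did not help to estimate the spread, edgeR called no gene (2352 of 14367 at an unadjusted p under 0.05, smallest adjusted p 0.0984). DESeq2 called 1553 genes (10.2%), with all 191 among them. Scaling by the spike-in RNAs moved the median log2 fold change of all genes from 0.05 to -0.34. It left 10 called genes (0.0655%), all lower in Egfp_OE. This scaling was run only with Egfp_OE replicate 2 included, the library with the highest ERCC share (1.35%). None of 53 called named genes changed direction under it. Most of these were named for large changes, which a shift of this size could hardly reverse, so their direction says little about the scaling.

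Sox13 and Smpd3 were the 2 genes whose calls outlasted the loss of either shCtrl library. Sox13, a transcription factor of the SoxD family (ENSMUSG00000070643, chromosome 1, 133382303 to 133424377), was at 3.75, 6.58 and 6.74 CPM in shCtrl and at 0.458, 0.280 and 0.235 CPM in Egfp_OE. It was 17.5-fold lower in Egfp_OE by the means (log2 -4.10, SE 0.42, adjusted p = 0.0096), and the largest of its 3 Egfp_OE values was below the smallest of its shCtrl values. Smpd3, a neutral sphingomyelinase that cleaves sphingomyelin to ceramide (ENSMUSG00000031906, chromosome 8, 106252548 to 106337988), was named after its values were seen. It was at 13.6, 10.6 and 9.07 CPM in shCtrl and at 2.98, 1.6 and 1.85 CPM in Egfp_OE (log2 -2.36, SE 0.26, adjusted p = 0.011). Without Egfp_OE replicate 3 the adjusted p of Smpd3 was 0.0948.

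Of the 10 genes with the largest decrease in Egfp_OE, several encode transcription factors of development, Zic2, Zic5, Pax6 and Alx1 among them. Zic2 and Zic5, zinc finger factors of neural development, are neighbours on chromosome 14 (122475435 to 122479852 and 122456795 to 122465677). Zic5 was at 5.50, 14.4 and 14.6 CPM in shCtrl and 1.37, 1.12 and 0.806 CPM in Egfp_OE (10.5-fold lower, log2 -3.38, SE 0.55, adjusted p = 0.0247). Zic2 was at 4.41, 8.79 and 9.15 CPM and 1.46, 0.801 and 0.638 CPM (7.71-fold lower, adjusted p = 0.0294). Both Zic genes were lower in each Egfp_OE library than in any shCtrl library, with shCtrl replicate 1 the lowest of its line. Pax6, the paired box factor of eye and islet development (chromosome 2, 105668900 to 105697364), was at 5.30, 6.11 and 7.63 CPM in shCtrl and 0.859, 1.00 and 0.436 CPM in Egfp_OE (8.29-fold lower, log2 -3.05, SE 0.42, adjusted p = 0.0196). Alx1, a homeobox factor of craniofacial mesenchyme (chromosome 10, 102998707 to 103030215), was at 12.5, 22.5 and 24.2 CPM and 3.64, 3.49 and 1.54 CPM (6.83-fold lower, log2 -2.77, SE 0.39, adjusted p = 0.0203).

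Of the 25 Hox genes tested, which specify position along the body axis, 3 were lower and 0 higher, against 0.74% lower over all genes. Their median log2 fold change was -0.25, against 0.05 over all genes, and -0.070 without shCtrl replicate 1. Hoxd8 (chromosome 2, 74704615 to 74707933) was at 5.17, 12.7 and 13.9 CPM in shCtrl and 1.80, 0.962 and 0.839 CPM in Egfp_OE, 8.80-fold lower (adjusted p = 0.0247). The neighbours Hoxa9 and Hoxa10 (chromosome 6, 52223100 to 52231089 and 52231197 to 52240854) were the other 2. Hoxa9 was at 4.15, 5.16 and 5.81 CPM against 1.43, 1.40 and 0.671 CPM (log2 -2.10, adjusted p = 0.0247), and Hoxa10 at 9.81, 12.7 and 13.2 CPM against 5.04, 5.61 and 3.83 CPM (log2 -1.30, adjusted p = 0.0294). All 3 Hox genes passed without Egfp_OE replicate 2 as well. Most of the cluster did not pass, and Hoxb9, the most abundant Hox gene, was at 157, 174 and 176 CPM in shCtrl and 151, 124 and 139 CPM in Egfp_OE.

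Among 46 tested lineage transcription factors of mesenchyme and gut, 3 were lower and 2 were higher, against 0.74% and 0.511% of all genes. The list's median log2 fold change was 0.02, and it ranged from -0.11 without shCtrl replicate 3 to 0.28 without shCtrl replicate 1, with 0.11 without Egfp_OE replicate 2. Foxd1, a forkhead factor of stromal progenitors, was lower at 18.1, 30.3 and 31.1 CPM in shCtrl and 8.67, 8.17 and 4.46 CPM in Egfp_OE (log2 -1.90, adjusted p = 0.032). Tbx20, a T-box factor of heart development, was lower at 10.0, 13.3 and 15.8 CPM against 3.75, 1.72 and 2.48 CPM (log2 -2.29, adjusted p = 0.0431), though not without Egfp_OE replicate 2 (adjusted p = 0.0555). Foxl2, a forkhead factor of the ovary, was lower at 1.58, 2.64 and 3.05 CPM against 0.258, 0.160 and 0.269 CPM. The other 2 of the 5, Sox9 and Sox11, went the opposite way. Sox9, a factor of cartilage and of pancreatic ducts and progenitors (chromosome 11, 112782224 to 112787760), was at 36.6, 25.3 and 20.3 CPM in shCtrl and 50.9, 74.4 and 75.3 CPM in Egfp_OE (2.44-fold higher, log2 1.29, SE 0.25, adjusted p = 0.0386). Sox11 was at 12.4, 7.96 and 6.95 CPM against 23.5, 36.6 and 27.9 CPM (log2 1.68, adjusted p = 0.0496, and 0.0701 without Egfp_OE replicate 2). Sox9 is also a marker on the pancreatic epithelium list, whose 10 genes summed to 25.0 to 46.3 CPM in shCtrl and 59.7 to 88.1 CPM in Egfp_OE. Sox9 made up most of those sums, 3 of the 10 markers had no count in any of the 6 libraries, and Epcam was at 0.441 CPM or less.

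Sox2, Six3, Pax9 and Nkx6-1, developmental regulators chosen after their values were seen, were also lower in Egfp_OE. Sox2, the pluripotency and neural progenitor factor, was at 13.3, 23.7 and 27.6 CPM in shCtrl and 5.90, 4.69 and 3.39 CPM in Egfp_OE (log2 -2.21, adjusted p = 0.0247). Six3, a homeobox factor of the forebrain and eye, was at 18, 39.7 and 42.2 CPM against 7.27, 11.7 and 6.28 CPM (log2 -1.98, adjusted p = 0.0376). Pax3, a factor of the neural crest and muscle lineage, was at 53.6, 38.2 and 36.3 CPM against 57.1, 41.4 and 52.4 CPM and did not pass (adjusted p = 0.468). In the Kitl_OE libraries Zic5 was between 0 and 0.0778 CPM, Sox2 between 0.0733 and 0.117 CPM and Alx1 between 0.117 and 0.171 CPM. In shKitl these 3 genes lay at 4.20 to 11.9, 8.71 to 16.3 and 12.7 to 25.2 CPM.

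Tmem171, Ripor2 and Galntl6, also among the genes with the largest decrease, encode other kinds of protein than transcription factors. Tmem171, a membrane protein gene, was at 37.2, 106 and 125 CPM against 14.1, 10.7 and 9.57 CPM, and its call was lost without Egfp_OE replicate 2 (adjusted p = 0.0706). Ripor2, a regulator of the small GTPase RHOA, was at 3.55, 8.04 and 10.6 CPM against 0.687, 0.401 and 0.571 CPM. Galntl6, a gene of the polypeptide N-acetylgalactosaminyltransferase family, was at 2.96, 6.39 and 6.32 CPM against 0.773, 0.280 and 0.369 CPM (log2 -3.42, adjusted p = 0.0247).

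**Figure D3:**
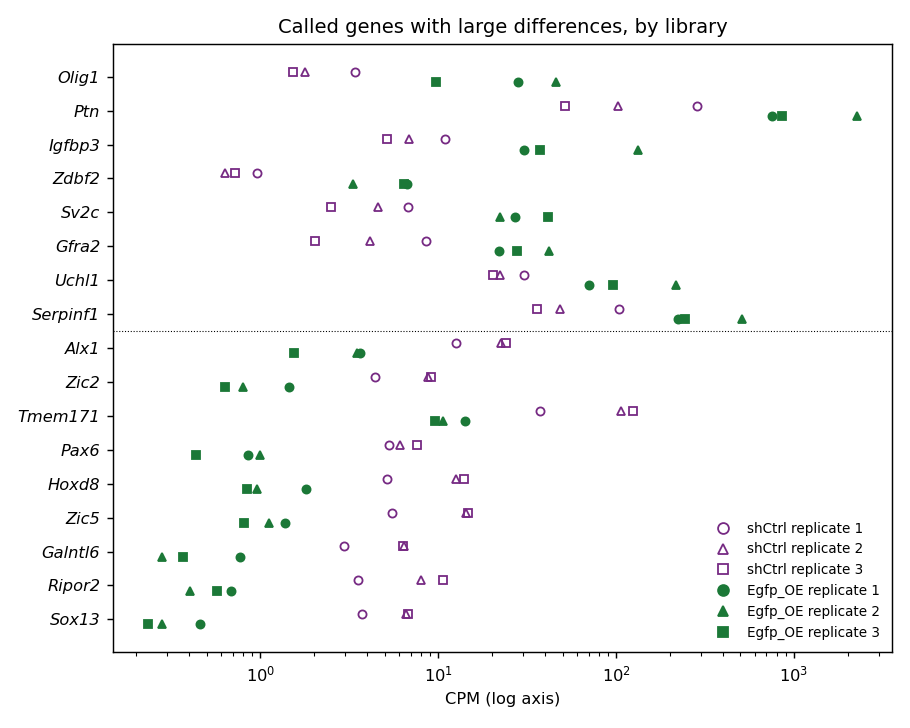
Each row is a gene and the horizontal axis its CPM on a log scale, with open symbols for the 3 shCtrl libraries and filled symbols for the 3 Egfp_OE libraries. Genes above the dotted line are among the 10 with the highest log2 fold change by the rule for named genes, and those below it among the 10 with the lowest. In every row the 2 colours are separate.

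Among the 10 genes with the highest log2 fold changes, Ptn, which encodes the secreted heparin-binding growth factor pleiotrophin (chromosome 6, 36714929 to 36810220), was the most abundant. It was at 287, 102 and 51.9 CPM in shCtrl and 751, 2260 and 858 CPM in Egfp_OE (8.78-fold higher, log2 3.13, SE 0.65, adjusted p = 0.0455). Without Egfp_OE replicate 2 Ptn was 5.48-fold higher and did not pass (adjusted p = 0.0722). Igfbp3, a carrier of insulin-like growth factors, was at 10.9, 6.82 and 5.17 CPM against 30.3, 133 and 37.1 CPM, and without replicate 2 its fold fell from 8.75 to 4.41 (adjusted p = 0.0548). Serpinf1, which encodes the antiangiogenic factor PEDF, was at 104, 48.1 and 36.0 CPM against 222, 509 and 243 CPM (5.17-fold higher, 3.70-fold and adjusted p = 0.0537 without replicate 2). Egfp_OE replicate 2 was the highest of the 6 libraries for all 3 of these genes, while replicates 1 and 3 still lay above every shCtrl library.

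Of the others in the top 10, Uchl1, Sv2c and Zdbf2 kept their calls without that replicate and Olig1 and Gfra2 did not. Uchl1, a deubiquitinase of neurons and endocrine cells (chromosome 5, 66676091 to 66687234), was at 30.2, 22.3 and 20.4 CPM in shCtrl and 70.6, 217 and 96.3 CPM in Egfp_OE (log2 2.39, SE 0.43, adjusted p = 0.0321, and 0.0363 without replicate 2). Sv2c, a synaptic vesicle glycoprotein gene, was at 6.78, 4.61 and 2.5 CPM against 27.0, 22.1 and 41.7 CPM (adjusted p = 0.0305 and 0.0363). Zdbf2, an imprinted gene, was at 0.954, 0.631 and 0.721 CPM against 6.70, 3.33 and 6.44 CPM (adjusted p = 0.0247 and 0.020). For Sv2c and Zdbf2 Egfp_OE replicate 2 was the lowest of its line rather than the highest. Olig1, a factor of the oligodendrocyte lineage, was at 3.39, 1.77 and 1.53 CPM against 27.9, 46.1 and 9.67 CPM (log2 3.63, adjusted p = 0.0434, and 0.0661 without replicate 2). Gfra2, a receptor subunit for neurturin, was at 8.59, 4.14 and 2.03 CPM against 21.9, 42.0 and 27.8 CPM (adjusted p = 0.0455, and 0.0635 without replicate 2).

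In the fit without Egfp_OE replicate 2 the same rule named further genes that the full comparison had not put among its 10. Capn6, a calpain family protein that binds microtubules, was at 41.9, 20 and 13.6 CPM in shCtrl and 133 and 142 CPM in Egfp_OE replicates 1 and 3, with 51.1 CPM in replicate 2 (adjusted p = 0.0371 without it and 0.0563 with it). Podxl, a sialomucin of podocytes, was at 4.25, 5.48 and 5.30 CPM against 16.3 and 27.7 CPM, with 9.10 CPM in replicate 2 (adjusted p = 0.0362 and 0.0476). Kif26b, a kinesin family gene, was at 5.59, 2.76 and 1.44 CPM against 22.6 and 22.9 CPM, with 10.3 CPM in replicate 2 (adjusted p = 0.047 and 0.0584). In all 3 the left-out library was the lowest of its line but above the highest shCtrl library.

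Ctgf and Loxl3 were lower in Egfp_OE, while the collagen and contractile lists had no called member. Ctgf, a matricellular protein induced by TGF-beta and YAP (chromosome 10, 24595442 to 24598683), was at 118, 212 and 235 CPM in shCtrl and 46.9, 37.1 and 23.4 CPM in Egfp_OE (5.27-fold lower, log2 -2.40, SE 0.40, adjusted p = 0.0281). Its paralogue Cyr61 was at 398, 540 and 571 CPM against 338, 491 and 242 CPM and did not pass (adjusted p = 0.308). Of 38 tested genes of TGF-beta and BMP signalling 3 were lower, Ctgf among them, and 0 were higher, against 0.74% lower over all genes. The list's median log2 fold change was -0.19, and it was -0.11 without Egfp_OE replicate 2 and -0.016 without shCtrl replicate 1. Of the 3 called genes only Ctgf passed without Egfp_OE replicate 2. Loxl3, a lysyl oxidase that cross-links collagen (chromosome 6, 83034173 to 83052562), was at 139, 159 and 159 CPM in shCtrl and 61.3, 53.8 and 46.8 CPM in Egfp_OE (2.82-fold lower, log2 -1.50, SE 0.24, adjusted p = 0.0247). Loxl3 was 1 of 2 lower members among 40 matrix remodelling genes, where 0 were higher, against 0.74% lower over all genes.

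None of the 23 tested collagens passed, and their median log2 fold change was 0.07, and 0.21 without Egfp_OE replicate 2. Col1a1 was at 1702, 909 and 697 CPM in shCtrl and 2174, 1916 and 1399 CPM in Egfp_OE (adjusted p = 0.318), so that shCtrl replicate 1 lay among the Egfp_OE libraries. Of 31 contractile and myofibroblast genes 0 passed, and the median was -0.36, and -0.26 without Egfp_OE replicate 2. In 12 of the 31 all Egfp_OE libraries lay below shCtrl and in 2 above, against 13.9% and 14.6% of all genes. Egfp_OE replicates 1 and 3 alone lay below shCtrl in 14 and above in 3, against 20.6% and 23.1%. Acta2, the smooth muscle actin of activated stellate cells, was at 530, 230 and 169 CPM against 215, 138 and 89.6 CPM (adjusted p = 0.361), and the 2 lines overlapped. Vcl, the focal adhesion protein vinculin, was at 134, 170 and 183 CPM against 101, 7.73 and 79.1 CPM. It passed only without Egfp_OE replicate 2 (log2 -0.85, adjusted p = 0.0421, against 0.192 with it), and that library held less Vcl than any of the other 5. Itgb1, the beta-1 integrin subunit, was at 758, 840 and 877 CPM against 566, 356 and 382 CPM (1.90-fold lower, adjusted p = 0.0447, and 0.0521 without replicate 2).

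The inflammatory genes Ptgs2 and Tnfaip3 were lower. Ptgs2, the inducible cyclooxygenase (chromosome 1, 150100031 to 150108227), was at 188, 379 and 445 CPM in shCtrl and 105, 58.1 and 57.9 CPM in Egfp_OE (4.59-fold lower, log2 -2.20, SE 0.36, adjusted p = 0.0247). Tnfaip3, the ubiquitin-editing brake on NF-kappaB known as A20, was at 30.7, 53.3 and 57.3 CPM against 14.4, 11.8 and 11.1 CPM (3.78-fold lower, log2 -1.92, SE 0.29, adjusted p = 0.0247). Both passed without Egfp_OE replicate 2, and they were the only 2 of 27 tested NF-kappaB and acute phase genes to pass, against 1.25% of all genes, while the list's median log2 fold change was 0.77 and without replicate 2 it was 0.31. None of 23 cytokine and chemokine genes passed. Il6 was at 3.42 CPM or less in every library. Cxcl12, a chemokine of stromal cells, was at 393, 236 and 204 CPM against 576, 955 and 573 CPM (log2 1.34, adjusted p = 0.0888).

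Wnt5a, a ligand of non-canonical Wnt signalling (chromosome 14, 28504750 to 28527448), was at 40.1, 53.6 and 53.9 CPM in shCtrl and 20.9, 8.29 and 10.9 CPM in Egfp_OE (3.68-fold lower, log2 -1.88, SE 0.32, adjusted p = 0.0282). It was the only 1 of 40 tested Wnt and Hedgehog genes to pass in the full comparison, against 1.25% of all genes. Egln1, the oxygen-sensing prolyl hydroxylase, was at 97.5, 149 and 151 CPM against 69.9, 72.3 and 67.5 CPM (1.90-fold lower, adjusted p = 0.0431). Egln1 alone passed among 33 tested glycolysis and hypoxia genes, against 1.25% of all genes. Msln, which encodes the mesothelial surface protein mesothelin, was at 60.2, 89.5 and 97.8 CPM against 13.3, 17.8 and 9.50 CPM (6.09-fold lower, log2 -2.61, SE 0.34, adjusted p = 0.0172). The 8 genes of the mesothelium list summed to 74.6, 94.5 and 102 CPM in shCtrl and 30.9, 30.6 and 16.5 CPM in Egfp_OE. Msln made up most of the sum in shCtrl and a smaller part of it in Egfp_OE. Without Msln the sums of the 2 lines overlapped. The members Lrrn4, Muc16, Upk1b and Wt1 were at 0.263 CPM or less in all 6 libraries, and Upk3b, Nkain4 and Bnc1 held most of the rest. Sums follow the most abundant members and do not show whether the others moved. Of 5 tested members Msln alone passed, against 0.74% lower over all genes. Their median log2 fold change was -2.09 (-2.42 over 6 members without Egfp_OE replicate 2), with 4 below 0 and 1 above. In 2 of the 5 every Egfp_OE library lay below shCtrl and in 0 above, against 13.9% and 14.6% of all genes. With the 6 libraries fitted alone 3 members were tested. In bulk RNA, fewer cells that express a gene and less of its RNA per cell cannot be told apart.

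Dlk1, an imprinted gene for a membrane protein of preadipocytes (chromosome 12, 109452823 to 109463336), was higher in Egfp_OE. It was at 161, 167 and 156 CPM in shCtrl and 293, 492 and 668 CPM in Egfp_OE (3.00-fold higher, log2 1.58, SE 0.24, adjusted p = 0.0247, and 0.0363 without Egfp_OE replicate 2). The shCtrl values lay close together, while the Egfp_OE values differed among themselves by more than the gap to shCtrl. Dlk1 was at 2.09 to 2.29 CPM in Kitl_OE and 62.5 to 75.2 CPM in shKitl. Of 27 tested adventitial and progenitor fibroblast markers 2 were higher (Dlk1 and Podxl) and 0 lower, against 0.511% higher over all genes. The list's median log2 fold change was 0.49. It was 0.14 without Egfp_OE replicate 2, and 0.30 and 0.29 without shCtrl replicates 2 and 3. Cd34, a progenitor marker, was at 49.7, 29.1 and 26.7 CPM against 86.8, 57.9 and 81.0 CPM. It did not pass in the full comparison (adjusted p = 0.0517) and passed without replicate 2 (adjusted p = 0.0363), among other alternatives. Pdgfra, a receptor of fibroblasts, was at 105, 52.3 and 32.2 CPM against 211, 154 and 221 CPM (log2 1.63, adjusted p = 0.095), so its lines did not overlap but it did not pass.

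Of 36 tested integrins, cadherins and other adhesion genes 1 was higher (Pcdh19) and 1 lower (Itgb1, above), against 0.511% and 0.74% of all genes. In 4 of the 36 all Egfp_OE libraries lay above shCtrl and in 11 below, against 14.6% and 13.9% of all genes. Pcdh19, a protocadherin of cell adhesion, was at 111, 94.8 and 92.9 CPM in shCtrl and 247, 330 and 291 CPM in Egfp_OE (2.90-fold higher, log2 1.54, SE 0.27, adjusted p = 0.032). Gsta4, a glutathione transferase that clears lipid peroxidation products, was at 7.34, 3.90 and 3.22 CPM against 16.9, 30.2 and 17.1 CPM (4.44-fold higher, adjusted p = 0.0348). Mt1, a metallothionein that binds zinc and copper, was at 119, 94.5 and 79.3 CPM against 171, 356 and 217 CPM (2.55-fold higher, adjusted p = 0.0392). Gsta4 and Mt1 were the 2 higher of 26 antioxidant and metallothionein genes, with 0 lower, against 0.511% higher over all genes, and both also passed without Egfp_OE replicate 2. The list's median log2 fold change was 0.33. It was 0.12 without shCtrl replicate 2, 0.14 without shCtrl replicate 3 and 0.78 without shCtrl replicate 1.

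The cholesterol and fatty acid synthesis genes lay higher in Egfp_OE as a group, by modest amounts. Of 32 tested members 2 passed, Acat2 and Sc5d, both higher, against 0.511% of all genes. The median log2 fold change of the list was 0.62 and 29 of 32 members were above 0. In 13 of 32 the 3 Egfp_OE libraries were all above the 3 shCtrl libraries, which was so for 14.6% of all tested genes. Acat2, an acetyl-CoA acetyltransferase at the start of the pathway, was at 109, 97.3 and 91.7 CPM in shCtrl and 161, 194 and 165 CPM in Egfp_OE (1.74-fold higher, log2 0.80, SE 0.14, adjusted p = 0.032). Sc5d, a late desaturase of sterol synthesis, was at 119, 90.9 and 90.7 CPM against 161, 170 and 156 CPM (1.62-fold higher, log2 0.70, SE 0.14, adjusted p = 0.0386). For both genes the spread within a line was smaller than the gap between the lines.

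Without Egfp_OE replicate 2 the count was 8 higher and 0 lower, against 1.17% of all genes, and the list's median stayed at 0.62. The 2 remaining Egfp_OE libraries were above all 3 shCtrl libraries in 24 of 32 genes, against 23.1% of all tested genes. Hmgcs1, the synthase that makes HMG-CoA, was at 176, 133 and 130 CPM in shCtrl and 267, 227 and 229 CPM in Egfp_OE (log2 0.76, adjusted p = 0.0419, against 0.051 with replicate 2). Idi1, the isopentenyl diphosphate isomerase, was at 45.2, 35.4 and 37.1 CPM against 73.9 and 73.3 CPM in replicates 1 and 3, while replicate 2 held 25.4 CPM. Sqle and Hsd17b7, enzymes that act between squalene and cholesterol, also passed without it, with log2 fold changes of 0.79 and 0.92. The list was not uniformly higher: Fasn, the fatty acid synthase, was at 903, 1101 and 1107 CPM against 904, 322 and 1038 CPM. Scaling by the spike-in RNAs, run only with replicate 2 included, brought the list's median to 0.23 with 25 of 32 above 0. The median of all genes then stood at -0.34.

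The sterol response of such genes is known to run through the sterol regulatory element, and the promoter of Hmgcs1 is shown for the match it holds. It is taken from RefSeq (GRCm38.p6, chr13:119690101-119690400, plus strand, 300 bases around the start), 5′ to 3′, with a match to TCACNCCAC in capitals.
Hmgcs1: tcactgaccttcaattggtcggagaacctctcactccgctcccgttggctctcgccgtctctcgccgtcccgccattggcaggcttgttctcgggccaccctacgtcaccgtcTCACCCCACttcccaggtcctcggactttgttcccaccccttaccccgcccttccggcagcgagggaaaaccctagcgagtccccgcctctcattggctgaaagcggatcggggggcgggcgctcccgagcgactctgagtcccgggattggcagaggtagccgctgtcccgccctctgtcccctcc
The letters TCACNCCAC were searched on both strands. They were in the promoter of 1 of the 22 list members that RefSeq matched (4.55%), against 1.44% of 27025 genes.

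Interferon response genes ranged widely within each line and did not separate the lines. Of 58 tested members 0 passed in edgeR's test, with or without Egfp_OE replicate 2, against 1.25% and 2.15% of all genes. The list's 60 genes summed to 6237, 2132 and 1128 CPM in shCtrl replicates 1, 2 and 3 and to 4306, 13714 and 1577 CPM in Egfp_OE replicates 1, 2 and 3. In shCtrl, replicate 1 was the highest in 58 of 58 genes and replicate 3 the lowest in 57, against 49.0% and 39.8% of all tested genes. In Egfp_OE, replicate 2 was the highest in 54 of 58 and replicate 3 the lowest in 57, against 44.2% and 28.8% of all genes. The median log2 range within a line was 3.20 in shCtrl and 3.02 in Egfp_OE for these genes, against 0.37 and 0.67 for all genes. Between Egfp_OE replicates 1 and 3 alone it was 1.67, against 0.17.

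Single members carried the same order. Ifit1, an antiviral protein that binds foreign RNA, was at 245, 80.4 and 39.4 CPM in shCtrl and 201, 604 and 51.2 CPM in Egfp_OE (adjusted p = 0.329). Isg15, a ubiquitin-like modifier, was at 232, 65.4 and 22.7 CPM against 169, 1116 and 38.5 CPM (adjusted p = 0.235). In both genes the 2 lines overlapped. The median log2 fold change of the list was 0.76 with all libraries and -0.10 without Egfp_OE replicate 2. Within the list the difference of replicate 2 from replicates 1 and 3 also depended on length: its median was 2.64 in the 17 shortest genes, 2.05 and 1.85 in the middle groups and 1.14 in the 7 longest. It was above 0 in all 4 length groups, while over all genes it was above 0 only in the shorter 2.

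Many of these genes hold a match to the interferon-stimulated response element close to their start. The promoters of Ifit1 and Isg15 are shown because each holds more than 1 match. They are from RefSeq (GRCm38.p6, chr19:34640639-34640938 on the plus strand and chr4:156200769-156201068 on the minus strand), 5′ to 3′, with matches to GAAANNGAAA on either strand in capitals.
Ifit1: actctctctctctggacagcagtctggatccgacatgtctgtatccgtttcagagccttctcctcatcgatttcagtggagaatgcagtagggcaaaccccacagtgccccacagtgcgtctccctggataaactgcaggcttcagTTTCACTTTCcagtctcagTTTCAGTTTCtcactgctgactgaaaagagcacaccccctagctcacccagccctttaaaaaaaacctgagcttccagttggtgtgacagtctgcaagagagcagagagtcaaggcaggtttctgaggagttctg
Isg15: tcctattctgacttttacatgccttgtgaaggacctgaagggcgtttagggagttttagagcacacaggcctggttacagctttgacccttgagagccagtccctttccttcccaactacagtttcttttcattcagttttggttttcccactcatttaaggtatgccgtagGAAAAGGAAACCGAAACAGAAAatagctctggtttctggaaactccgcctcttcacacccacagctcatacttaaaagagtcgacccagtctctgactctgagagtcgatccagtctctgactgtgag
Ifit1 holds 2 matches and Isg15 holds 3 that overlap. At least 1 match was in 26 of the 45 interferon genes that RefSeq matched (57.8%), against 3.99% of 27025 genes. Among the genes called between the 2 lines the match was in 0 of 53 higher and 1 of 79 lower genes with a promoter.

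Antigen presentation genes followed the interferon genes across libraries. Of 21 tested members 0 passed, and the list's median log2 fold change was 1.11 with all libraries and -0.18 without Egfp_OE replicate 2. shCtrl replicate 1 was the highest of its line in 21 of 21 genes, against 49.0% of all tested genes. Egfp_OE replicate 2 was the highest of its line in 19, against 44.2%. B2m, the light chain of MHC class I, was at 906, 455 and 377 CPM in shCtrl and 627, 2182 and 439 CPM in Egfp_OE. H2-K1, a class I heavy chain with near-identical relatives among which reads may be split, was at 245, 93.8 and 55.1 CPM against 88.0, 822 and 53.2 CPM (adjusted p = 0.379). H2-Aa, a class II gene, had no count in any of the 6 libraries. For B2m and H2-K1 Egfp_OE replicate 2 was the highest of the 6 libraries.

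**Figure D4:**
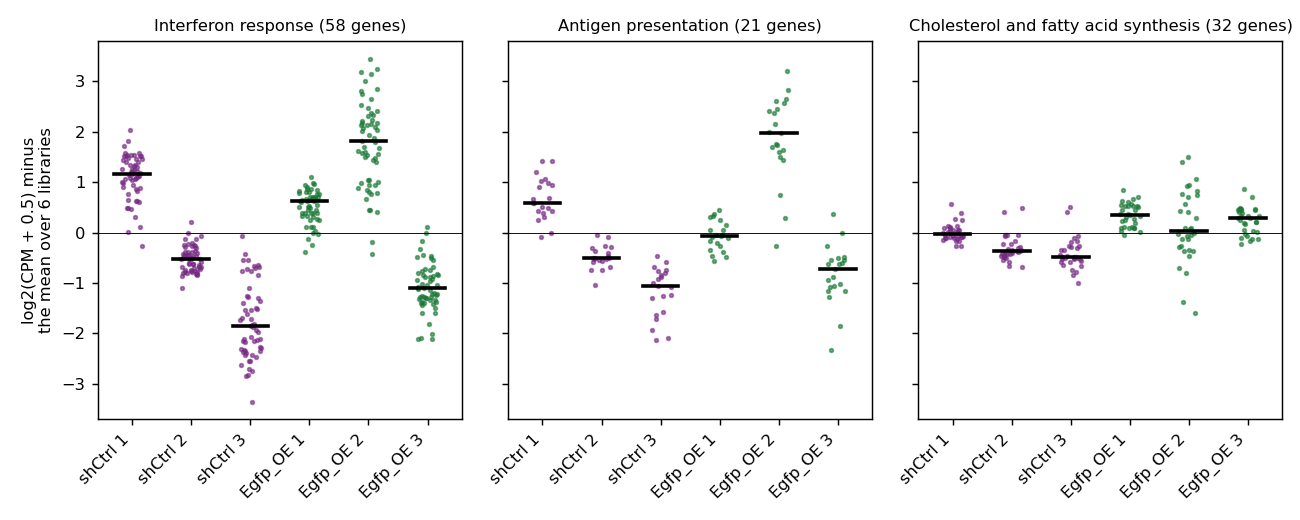
The vertical axis is log2(CPM + 0.5) minus the gene's mean over the 6 libraries, each dot is a tested gene and each black bar the median of a library. In the interferon (58 genes) and antigen presentation (21 genes) panels shCtrl replicate 1 and Egfp_OE replicate 2 are the high libraries of their lines, while in the cholesterol and fatty acid panel (32 genes) Egfp_OE replicates 1 and 3 sit above the shCtrl libraries.

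Ribosomal protein genes set Egfp_OE replicate 2 apart from the other libraries of its line. Their 40 genes summed to 25640, 34148 and 36688 CPM in shCtrl and to 21731, 49422 and 22413 CPM in Egfp_OE. None of 40 passed in the full comparison, with a median log2 fold change of -0.03. Without replicate 2 the median was -0.51. In that fit 3 were lower, Rps12 and Rps7 among them, and 0 higher, against 0.986% lower over all genes. The 2 remaining libraries lay below all 3 shCtrl libraries in 31 of 40 genes, against 20.6% of all tested genes. Rps12, a component of the small subunit, was at 598, 770 and 871 CPM in shCtrl and 361, 1045 and 347 CPM in Egfp_OE (log2 -1.08, adjusted p = 0.0388 without replicate 2). Egfp_OE replicate 2 was the highest of its line for 40 of 40 ribosomal genes, against 44.2% of all tested genes, and the list's median moved with it. By exon length 24 of the 40 fell in the shortest of the 4 groups. The median log2 difference of replicate 2 from replicates 1 and 3 was 1.22 in these 24. It was 1.09 in the 14 genes of the second group and 1.38 in the 2 of the third. Over all genes it was 0.55, 0.17 and -0.18 in these groups.

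Mitosis genes, of which 15 and 10 of 36 fell in the longer 2 of the 4 length groups, were mostly lowest in Egfp_OE replicate 2. Of 36 tested members 0 passed, with a median log2 fold change of -0.30, and -0.20 without Egfp_OE replicate 2. That replicate was the lowest of the 6 libraries in 27 of 36 genes, against 34.3% of all tested genes. In 12 of 36 all Egfp_OE libraries lay below shCtrl and in 0 above, against 13.9% and 14.6% of all genes. Egfp_OE replicates 1 and 3 alone lay below shCtrl in 16 and above in 4, against 20.6% and 23.1%. Mki67, the marker of cycling cells, was at 452, 505 and 539 CPM in shCtrl and 452, 124 and 408 CPM in Egfp_OE. Pttg1, the securin gene, went the other way at 32.3, 21.2 and 20.4 CPM against 25.7, 124 and 21.8 CPM. For both genes Egfp_OE replicates 1 and 3 differed from shCtrl by far less than replicate 2 did.

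**Figure D5:**
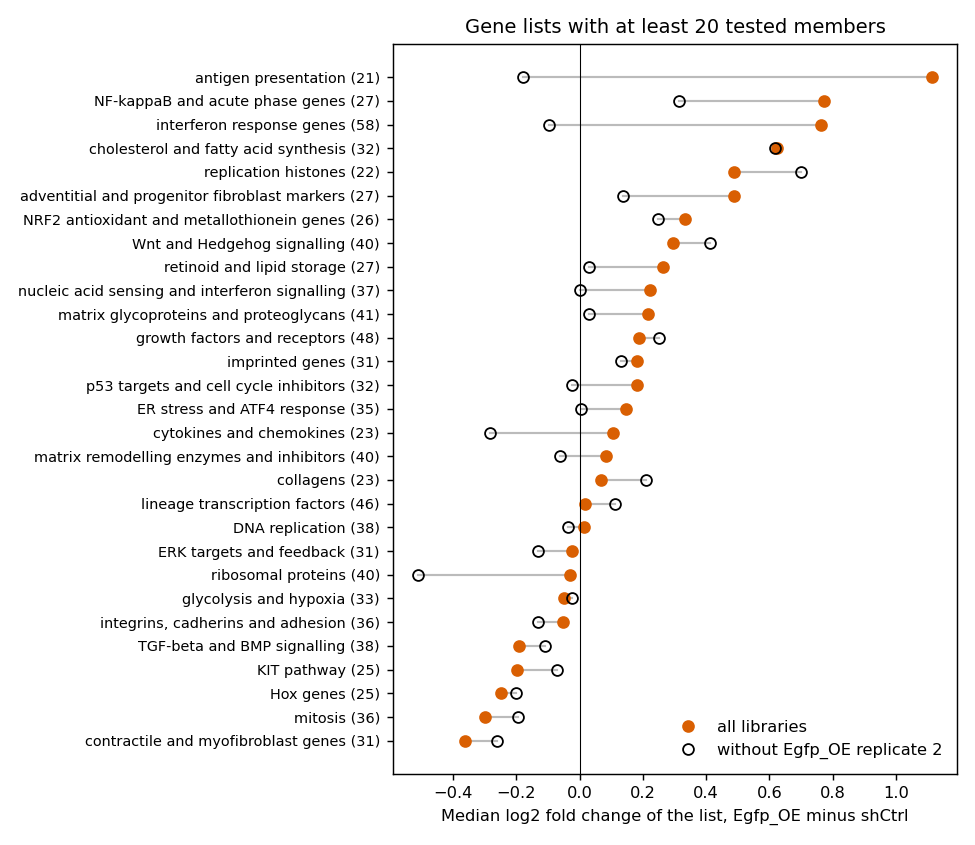
The horizontal axis is the median log2 fold change, Egfp_OE minus shCtrl, of each list with at least 20 tested genes (number in brackets), filled for all libraries and open without Egfp_OE replicate 2. The cholesterol and fatty acid list stays at 0.62, while the interferon list moves from 0.76 to -0.10 and the ribosomal list from -0.03 to -0.51.

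In the remaining lists few or no members passed. The KIT pathway had 0 called of 25 genes in the full comparison, with a median log2 fold change of -0.20. Egfp_OE replicate 2 was the lowest of the 6 libraries in 19 of the 25, against 34.3% of all tested genes. Without that replicate the median was -0.07 and 1 gene was lower, against 0.986% of all genes. In that fit the gene was the kinase Src (log2 -0.50, adjusted p = 0.0421). No member passed among 38 DNA replication genes, 32 p53 targets, 41 matrix glycoproteins, 37 nucleic acid sensing genes, 22 replication histones and 14 mitochondrial transcripts. Of 48 growth factors and receptors 2 were higher (Ptn and Igfbp3) and 0 lower, against 0.511% higher over all genes. On the imprinted list, which does not hold Zdbf2, 31 genes were tested. Of these 1 was higher (Dlk1) and 1 lower (Ppp1r9a, an actin-binding scaffold of synapses), against 0.511% and 0.74% of all genes. Ppp1r9a was at 5.00, 4.97 and 7.46 CPM in shCtrl and 1.83, 1.04 and 1.41 CPM in Egfp_OE (adjusted p = 0.0431, and 0.0593 without replicate 2).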

How the data were processed

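PolyA-selected RNA was sequenced. Reads were counted per gene as raw counts, which the authors deposited, with STAR 2.5.2b and featureCounts of Subread 1.5.2 on GRCm38, per the submitters' processing notes. The authors also deposited TPM values, and the sources used here name neither the gene lengths behind them nor the strand setting or annotation release. Of 49763 entries 92 ERCC spike-ins were left out of library sizes and tests.

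Counts were fitted with edgeR 4.0.16 (R 4.3.3): filterByExpr, TMM, robust quasi-likelihood, 1 coefficient per line over all 12 libraries, and Benjamini-Hochberg adjustment over 15271 genes at 0.05. Coordinates are from GENCODE M21 (GRCm38), which held 49326 of 49671 gene IDs. The model was also run on simulated counts with the fitted spread and changes planted in Egfp_OE. These counts held no outlying library and no shift by gene length, so they do not show how the model handles either.

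Groups came from sample titles. Members, 37 gene lists and rules were chosen with earlier results of these data known. Named were 10 fixed genes, the 10 called genes with the largest change in each direction (mean of at least 5 CPM in the higher line, lines not overlapping, predicted gene models left out) and up to 4 called members per list, each also without Egfp_OE replicate 2. Not all of these genes are reported here. List members named beyond this rule were picked with their values in view. Alternatives included DESeq2 1.42.0 and limma 3.58.1, the latter also on log2(TPM + 1) and log2(TPM + 0.1).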

Additional observations from a re-analysis of the deposited data

How the results depend on the processing

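Counts of genes higher and lower in Egfp_OE (78 and 113) moved to 0 and 10 with spike-in scaling, 850 and 703 with DESeq2, 149 and 158 with limma-voom, 28 and 76 with log2(TPM + 0.1), and 156 and 193 with all genes that had any count. At an adjusted p of 0.01 they were 0 and 1. With the P number as a covariate (3378 genes at an unadjusted p under 0.05), or with the 6 libraries fitted alone (2352), edgeR called 0 and 0. Leaving out each library in turn gave 0 to 446 higher and 0 to 325 lower. The cause of these changes was not tested.

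Replicate numbers did not pair the libraries: same-numbered libraries correlated at -0.034, -0.064 and 0.253, and not every library correlated best with its own number. With the replicate block 32 genes were higher and 50 lower. DESeq2 size factors, library totals, log2(TPM + 1), a CPM of at least 5 in 3 libraries and a minimum log2 fold change of 1 in size kept both counts within 1.5 times. No named gene that passed the threshold changed direction under any of these alternatives. Most of these genes were named for the size of their change, so this says little about genes with smaller changes. For genes with a mean near 1 CPM depth limits the precision.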
